A study of Mus musculus with 10 samples.

Results

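Cell cycle and DNA replication genes were followed through mouse brown adipocytes exposed to BML-260, which suppliers list as an inhibitor of the Dusp22 phosphatase. The set was defined by name: 44 gene symbols, 17 of them grouped as G1/S genes (DNA replication and entry into S phase) and 27 as G2/M genes (mitosis and cytokinesis). All 44 were found among the 24640 genes of the deposited count table, and all 44 were among the 15212 genes with enough counts to be tested. The table came from RNA sequencing of total RNA from cells labelled as C57BL/6 brown adipocytes. There were 5 groups of 2 libraries: DMSO for 1 day, BML-260 for 1 day, ISO for 1 day, DMSO for 3 days and BML-260 for 3 days. The labels do not spell out ISO, give no dose for any agent and name DMSO only as a treatment. They also give no age or sex of the animals, no stage of differentiation, and do not say whether replicates were separate cultures. The p-values below therefore speak only of the spread among these libraries, and part of it may be technical.

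As background, cyclin E with its kinase starts S phase, and the transcription factor E2F1 and its relatives switch on the genes of the replication machinery. The replicative helicase is the MCM2-7 ring, loaded by CDC6 and CDT1; PCNA is the sliding clamp of the polymerases, and ribonucleotide reductase (Rrm1, Rrm2) and thymidylate synthase (Tyms) supply nucleotides. Later, cyclin B with CDK1 drives mitosis, and the kinesins, Aurora kinases, centromere proteins and checkpoint kinases divide the chromosomes. Promoters of the first class often carry E2F sites. Those of the second often pair CCAAT boxes, bound by NF-Y, with a cell cycle genes homology region (CHR), through which the DREAM and MuvB complexes act. Mature brown adipocytes are largely out of the cell cycle, whereas their precursors divide.

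The sequences in front of the genes differed between the classes. The 170 bases before the start of transcription are printed for 7 genes as examples. They are 3 G1/S genes (Mcm5, Uhrf1 and Mcm2) and 4 G2/M genes (Cdc20, Cdk1, Mki67 and Top2a). Whether the marked letters go with the changes in the comparisons that follow was not tested. Each sequence runs 5′ to 3′ on the strand of its gene and ends on the base before the start, as listed by RefSeq on build GRCm38.p6. In the plot of shares further on, CCAAT is labelled as the NF-Y box. Capitals mark matches to E2F letters (TTCCCGC, the variant TTCGCGC, the variant TTGCCGC and the variant TTGGCGC), to CHR letters (TTTGAA, and the variant TTCGAA) and to the box CCAAT, each searched on both strands, so that the run GCGCCAA, the run TTCAAA and the run ATTGG are matches on the other strand. An E2F match ending in CCAA can share those letters with CCAAT, neighbouring E2F matches can overlap, and TTCGAA reads the same on both strands. Mcm5, on the plus strand at chr8:75109339-75109508, held 3 E2F matches, of which the last 2 overlap, and 2 CCAAT boxes.
Mcm5: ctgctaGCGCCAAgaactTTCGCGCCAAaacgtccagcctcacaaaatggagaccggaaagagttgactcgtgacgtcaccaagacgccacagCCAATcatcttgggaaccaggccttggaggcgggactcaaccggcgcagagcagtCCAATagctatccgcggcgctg
Uhrf1, on the plus strand at chr17:56303167-56303336, held 1 E2F match and 1 CCAAT box.
Uhrf1: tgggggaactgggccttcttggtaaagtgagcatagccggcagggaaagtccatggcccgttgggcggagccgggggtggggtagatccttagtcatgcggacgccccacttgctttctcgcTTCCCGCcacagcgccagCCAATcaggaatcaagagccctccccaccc
Mcm2, on the minus strand at chr6:88898781-88898950, held no E2F match in these letters but 1 CHR match.
Mcm2: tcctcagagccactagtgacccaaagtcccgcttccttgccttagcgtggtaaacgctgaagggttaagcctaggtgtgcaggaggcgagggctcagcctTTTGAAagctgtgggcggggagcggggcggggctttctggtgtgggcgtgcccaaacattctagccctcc
Cdc20, on the minus strand at chr4:118437344-118437513, held 1 CHR match between 2 CCAAT boxes.
Cdc20: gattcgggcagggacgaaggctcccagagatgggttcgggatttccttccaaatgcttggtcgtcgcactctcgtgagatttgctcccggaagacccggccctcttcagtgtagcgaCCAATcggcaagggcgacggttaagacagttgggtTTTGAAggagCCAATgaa
Cdk1, on the minus strand at chr10:69352913-69353082, held matches of all kinds, with 1 for E2F, 2 for CHR and 2 for CCAAT.
Cdk1: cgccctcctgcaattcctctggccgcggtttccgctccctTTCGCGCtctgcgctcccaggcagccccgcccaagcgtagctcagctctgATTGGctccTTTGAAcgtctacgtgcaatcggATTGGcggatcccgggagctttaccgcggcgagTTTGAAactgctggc
Mki67, on the minus strand at chr7:135716380-135716549, likewise held 1 E2F match, 2 CHR matches and 2 CCAAT boxes.
Mki67: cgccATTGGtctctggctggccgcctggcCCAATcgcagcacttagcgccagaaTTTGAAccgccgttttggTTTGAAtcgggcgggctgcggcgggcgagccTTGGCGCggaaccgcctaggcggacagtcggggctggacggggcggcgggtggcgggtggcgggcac
Top2a, on the minus strand at chr11:99024190-99024359, held 3 CHR matches and 4 CCAAT boxes.
Top2a: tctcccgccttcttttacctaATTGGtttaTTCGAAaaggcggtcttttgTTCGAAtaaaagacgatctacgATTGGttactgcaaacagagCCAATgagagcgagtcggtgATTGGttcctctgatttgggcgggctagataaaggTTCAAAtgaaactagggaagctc
All 7 stretches lie upstream of the RefSeq start, and their last bases overlap a GENCODE exon by 16 bases in Uhrf1, 9 in Cdc20 and 26 in Cdk1.

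Over the wider window of 250 bases before to 50 bases after the start, 37 of the 44 genes had a listed promoter (14 G1/S and 23 G2/M). Ccne2, Gins2, Mcm4, Aurkb, Ccna2, Kif20a and Tpx2 had none, and the first of 2 listed starts was used for Mcm7, Uhrf1 and Prc1. E2F letters were present in 9 of 14 G1/S promoters (64.3%) and 3 of 23 G2/M promoters (13.0%), beside 9.57% of all 32851 mouse promoters of this length. CHR letters were present in 2 of 14 G1/S promoters (14.3%, Mcm2 and Mcm7) and 19 of 23 G2/M promoters (82.6%), beside 19.2% of all promoters. A CCAAT box was found in 64.3% of the G1/S and 91.3% of the G2/M promoters, against 37.4% of all. CHR and CCAAT together occurred in 82.6% of the G2/M promoters and in 7.52% of all. In 18 G2/M genes the CHR letters lay within 50 bases of the start. These are matches of letters and not measured binding.

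**Figure D1:**
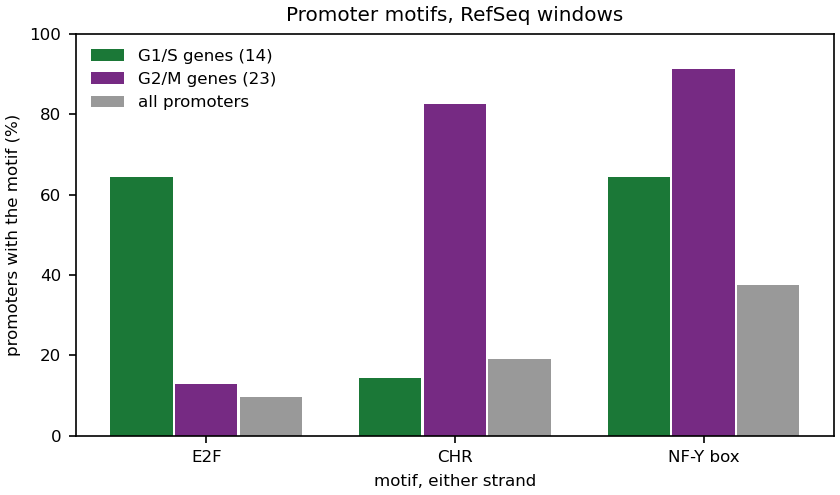
Percentage of promoters (y axis) that hold E2F, CHR or CCAAT letters within 250 bases before to 50 bases after the RefSeq start, for 14 G1/S genes, 23 G2/M genes and all 32851 promoters. The E2F bar is highest for G1/S genes (64.3%) and the CHR bar for G2/M genes (82.6%).

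The libraries held 16955918 to 21185675 counts, and the 44 genes took 0.521 to 0.636% of them, with 307 to 13453 counts per gene and library. Levels are given as CPM, the count scaled to a common library size, after edgeR's TMM scaling. The coefficient of variation between the 2 libraries of a group had a median of 2.58% and a maximum of 11.3% over these genes. Adipocyte markers summed to 6870 to 13700 CPM in every library and endothelial and macrophage markers to at most 7.24 CPM, with Cdh5 and Itgam at or near 0. Ptprc, Adgre1, Dpp4, Tie1, Myod1, Myog and Myf5 were not analysed here. Preadipocyte and fibroblast markers summed to 194 to 563 CPM and smooth muscle and pericyte markers to 184 to 359 CPM. Skeletal muscle lineage markers (2 of 5 in the table) summed to 63 to 79.2 CPM, nearly all of it Des. Markers of the labelled cell type were thus the highest of these lists in every library.

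Messages for proliferation were well expressed in all 5 groups. Per kilobase of exon, Top2a, the topoisomerase that untangles replicated chromosomes, was the highest of the 44, with a mean of 65.1 CPM per kb over the 10 libraries, at the 94th percentile of 13725 genes with a length. It was followed by the helicase subunit Mcm7 at 57.1, the mitotic cyclin Ccnb2 at 56.8 and Cdca3 at 56 CPM per kb. At the low end stood the helicase loader Cdc6 at 5.44, the checkpoint kinase Ttk at 5.52 and the S-phase cyclin Ccne2 at 5.56 CPM per kb. Of the 44 genes, 41 lay above the median of all genes per kilobase and 33 above the 75th percentile. In 7 genes over 10% of the exon bases overlap another gene (Gins2, Kif20a, Ube2c, Ccne2, Mcm7, Ccna2 and Prc1, with 67.3% for Gins2 and Gse1). Since the counting rule is not given, these levels may hold reads of the neighbour. Pseudogenes named after Ccnb1, Ccnb2, Pcna and Tyms make those 4 uncertain in the same way.

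The G1/S and G2/M genes moved apart between groups. Each library was summarised by the mean log2 CPM of the 17 G1/S genes and of the 27 G2/M genes, relative to the mean of the DMSO 1 day libraries. The G1/S mean stood at 0.017 and -0.017 in the DMSO 1 day libraries, -0.205 and -0.21 with BML-260 for 1 day, and -0.108 and -0.119 with ISO. At 3 days it was -0.159 and -0.154 in DMSO and -0.257 and -0.247 with BML-260. The G1/S genes were therefore lower than in DMSO 1 day in all 8 other libraries, lowest with BML-260. The G2/M mean was 0.013 and -0.013 in DMSO 1 day, -0.139 and -0.18 with BML-260 for 1 day, but 0.232 and 0.217 with ISO. At 3 days it was 0.095 and 0.062 in DMSO and 0.043 and 0.053 with BML-260. Only the BML-260 1 day libraries had G2/M means below both DMSO 1 day libraries. Subtracting the G2/M from the G1/S mean gave -0.048 ± 0.025 (SD, n = 2) for BML-260 at 1 day, -0.338 ± 0.003 for ISO, -0.236 ± 0.027 for DMSO at 3 days and -0.3 ± 0.001 for BML-260 at 3 days. With 2 libraries in each group an exact permutation test cannot reach 0.05, so these means are given as descriptions. In bulk RNA, fewer dividing cells and less message per cell cannot be told apart, here or in any of the results that follow.

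**Figure D2:**
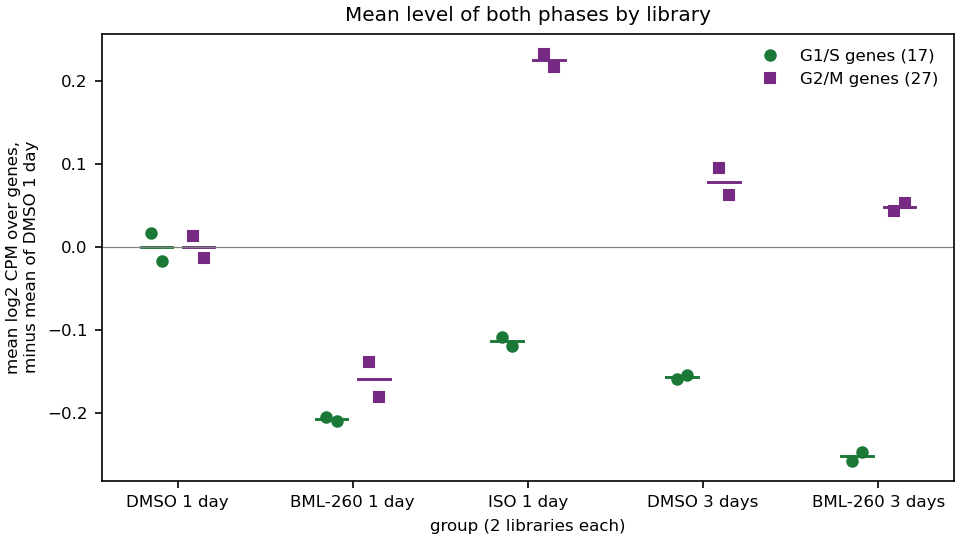
Mean log2 CPM of the 17 G1/S and the 27 G2/M genes in each library, relative to the DMSO 1 day mean (y axis), by group (x axis), with 1 point per library. BML-260 at 1 day is below 0 in both classes, whereas ISO and both 3 day groups have the G1/S points below 0 and the G2/M points above it.

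**Figure D3:**
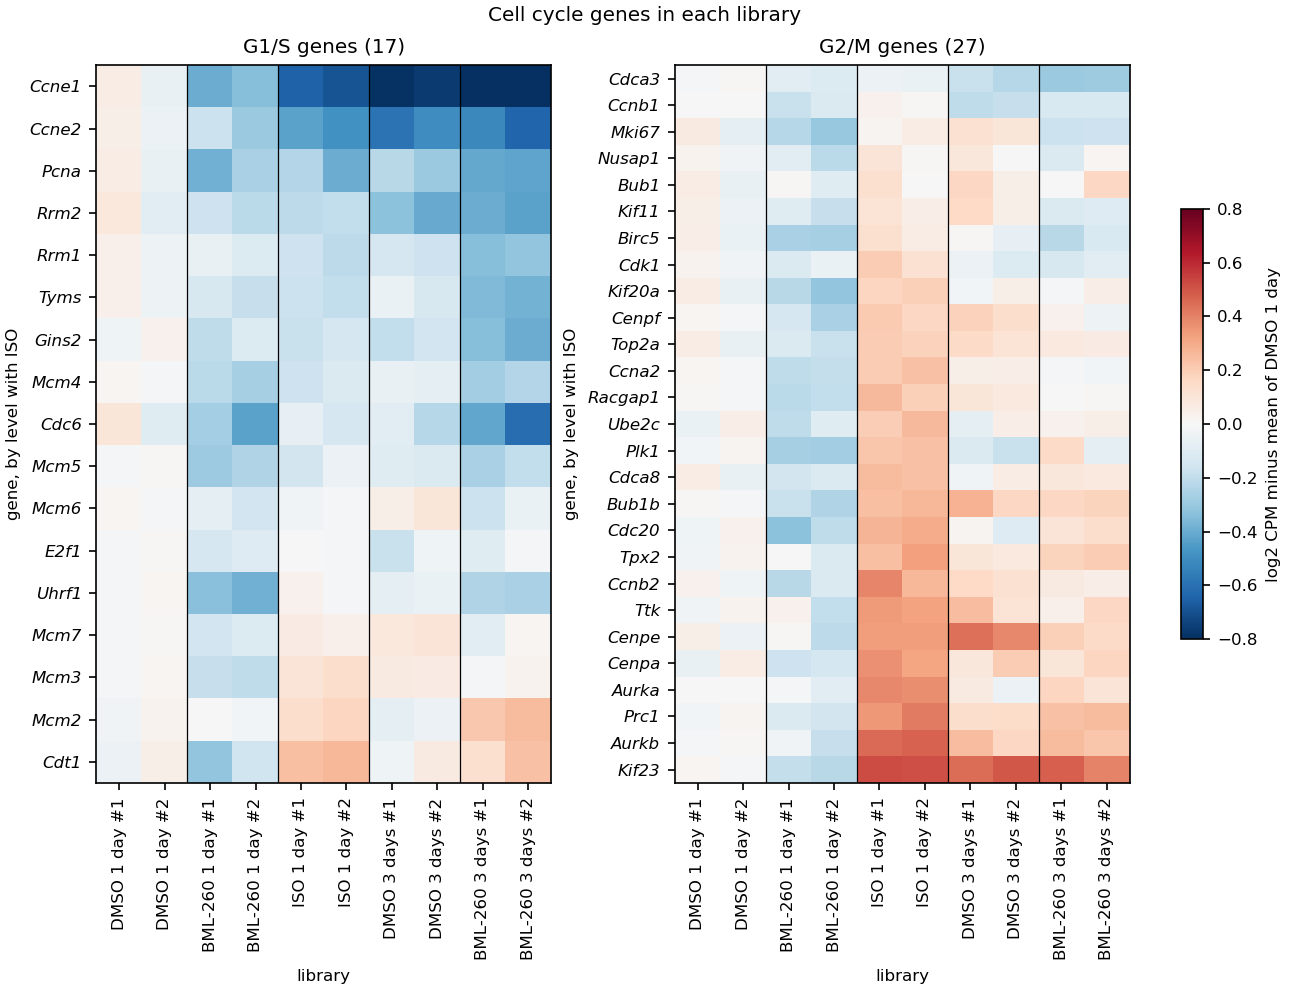
Log2 CPM of each of the 44 genes in each of the 10 libraries relative to the gene's DMSO 1 day mean, with G1/S genes in the left panel, G2/M genes in the right panel and libraries ordered by group. Values past the ends of the colour scale take the end colour, and the 2 libraries of a group look alike in most genes.

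BML-260 for 1 day was compared with DMSO for 1 day to ask what the compound does early. All 44 genes had a negative log2 fold change, and 24 of them fell (10 of 17 G1/S and 14 of 27 G2/M) while none rose, against 17.9% of all tested genes called in either direction and 8.62% called lower (9.32% higher). A call here is an edgeR quasi-likelihood test with a Benjamini-Hochberg adjusted p under 0.05 over all genes tested. In 39 of the 44, both BML-260 libraries lay below both DMSO libraries, which was so for 27.5% of all tested genes. The changes were small: medians of -0.20 for G1/S and -0.15 for G2/M genes on the log2 scale, beside -0.001 for all tested genes. They ranged from -0.37 to -0.009 in G1/S and from -0.27 to -0.044 in G2/M genes. The shared sign rested partly on single libraries. Without BML-260 1 day replicate 2, 1 G1/S and 3 G2/M genes had a positive log2 fold change. Leaving out DMSO 1 day replicate 1 made 1 G2/M gene positive, and leaving out DMSO 1 day replicate 2 made 1 G1/S gene positive.

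Among the G1/S genes, the maintenance methylation factor Uhrf1, which recruits DNA methyltransferase to replicated DNA, stood at 219 and 224 CPM in DMSO and 176 and 169.8 CPM with BML-260. The groups did not overlap, and Uhrf1 fell by 0.36 ± 0.045 (SE) on the log2 scale (edgeR adjusted p = 1.6e-06). The helicase subunit Mcm5, on chr8:75109569-75128439 (GRCm38), went from 188 and 190.2 CPM to 154 and 160.4 CPM, with a log2 change of -0.27 ± 0.047 (SE, edgeR adjusted p = 0.00022). Mcm4 moved alike at -0.24 ± 0.046 (SE, edgeR adjusted p = 0.00043), and Mcm3 fell as well (-0.20 ± 0.045 SE, edgeR adjusted p = 0.0025). Mcm2, of the same hexamer, did not share this: its levels were 226 and 235 CPM in DMSO and 231 and 227 CPM with BML-260, with a log2 fold change of -0.009. The clamp Pcna read 45.1 and 41.5 CPM in DMSO and 33.1 and 36.1 CPM with BML-260, and fell (-0.32 ± 0.072 SE, edgeR adjusted p = 0.0022). Both helicase loaders were lower, Cdc6 at -0.35 ± 0.085 (SE, edgeR adjusted p = 0.0045) and Cdt1 at -0.23 ± 0.058 (SE, edgeR adjusted p = 0.0048). Cyclin E1, the S-phase cyclin, gave 33.7 and 30.9 CPM in DMSO against 24.5 and 25.5 CPM, and also fell (-0.37 ± 0.076 SE, edgeR adjusted p = 0.0011). Its relative Ccne2 had -0.23 (edgeR adjusted p = 0.057) and the factor E2f1 -0.12 (edgeR adjusted p = 0.14), both short of the threshold. Ccne2 crossed it with upper-quartile scaling (adjusted p = 0.045).

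Among the G2/M genes, the proliferation marker Mki67, which coats mitotic chromosomes and lies on chr7:135689784-135716361, read 516 and 466 CPM in DMSO and 418 and 396 CPM with BML-260, with a log2 change of -0.27 ± 0.047 (SE, edgeR adjusted p = 0.00017). The mitotic kinesin Kif20a went from 79.9 and 73.8 CPM to 65.8 and 61.7 CPM, at -0.27 ± 0.057 (SE, edgeR adjusted p = 0.0012). The survivin gene Birc5, a subunit of the chromosomal passenger complex, fell (-0.26 ± 0.056 SE, edgeR adjusted p = 0.0013). The groups were separate in all of these. Cdc20, the activator of the anaphase-promoting complex, fell (-0.27 ± 0.06 SE, edgeR adjusted p = 0.0023), and Plk1, a mitotic kinase, at -0.27 ± 0.068 (SE, edgeR adjusted p = 0.0057). Ccna2, the cyclin of S phase and G2, fell (-0.20 ± 0.048 SE, edgeR adjusted p = 0.0045). For Cdk1, the kinase that drives entry into mitosis, the values were 178 and 171 CPM in DMSO and 161 and 168 CPM with BML-260, and the log2 fold change of -0.084 (edgeR adjusted p = 0.25) did not pass. Aurora kinases A and B had -0.053 and -0.10, and neither passed.

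The count of G2/M genes called depended on single libraries: it was 8 in place of 14 without BML-260 1 day replicate 2, and also 8 without DMSO 1 day replicate 2. Top2a (-0.15, adjusted p = 0.024) lost its call without BML-260 1 day replicate 2 (-0.11, adjusted p = 0.22) or DMSO 1 day replicate 1 (-0.086, adjusted p = 0.29). Ccnb1 (-0.15, adjusted p = 0.029) lost its call when any 1 of the 4 libraries was left out (edgeR adjusted p of 0.062 to 0.23) or DESeq2's Wald test was used (0.086), and Cdc20 without BML-260 1 day replicate 1 (-0.21, adjusted p = 0.059) or DMSO 1 day replicate 2 (-0.23, adjusted p = 0.052). Markers of other cells moved in the same comparison. Preadipocyte and fibroblast markers (9 of 10 in the table) summed to 298 to 311 CPM in DMSO and 194 to 208 CPM with BML-260, with 4 of 8 tested called lower and none higher. Smooth muscle and pericyte markers (7 of 7) went from 319 to 320 CPM to 212 to 223 CPM, and adipocyte markers (7 of 7) from 9800 to 9950 CPM to 13200 to 13700 CPM. Most of that sum is Fabp4, the fatty acid carrier, with means of 6390 and 10400 CPM, while 3 of the 7 adipocyte markers were called higher and 2 lower, with a median log2 fold change of -0.088. Their part in the result was not tested.

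**Figure D4:**
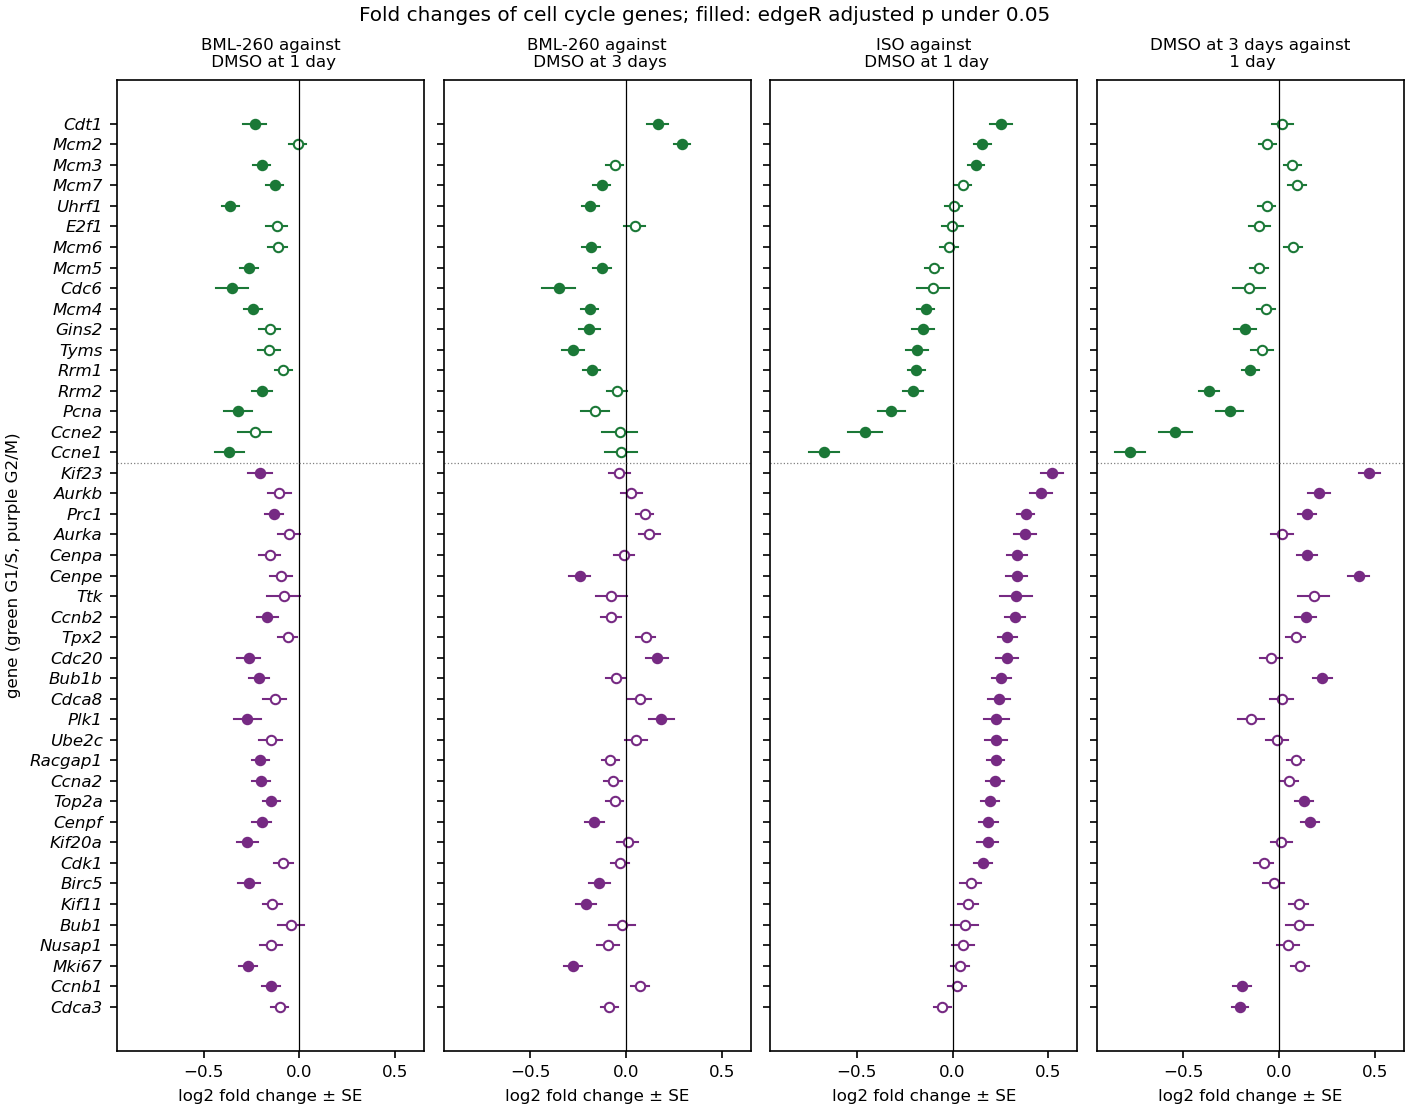
Log2 fold change of each of the 44 genes (points, with bars of ± 1 SE) in the comparisons with DMSO, G1/S and G2/M genes set apart, with filled points for edgeR adjusted p under 0.05. All points of BML-260 at 1 day are below 0, while with ISO the G2/M points are nearly all above 0.

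After 3 days, BML-260 and DMSO differed in another mixture of these genes. Of the 17 G1/S genes 9 fell and 2 rose, and of the 27 G2/M genes 5 fell and 2 rose, against 35.5% of all tested genes called (17.3% higher and 18.3% lower). The share of G2/M genes called (7 of 27) was thus under the background. Medians were -0.13 for G1/S, -0.034 for G2/M and -0.016 for all tested genes, with ranges of -0.35 to 0.29 in G1/S and -0.28 to 0.18 in G2/M genes. Both BML-260 libraries lay below both DMSO libraries in 12 G1/S and 10 G2/M genes and above them in 2 and 7, beside 35.6% and 32.2% of all tested genes.

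The 2 G1/S genes that rose were Mcm2 and Cdt1. Mcm2, on chr6:88883474-88898780, read 219 and 223 CPM in DMSO and 267 and 274 CPM with BML-260, with a log2 change of 0.29 ± 0.044 (SE, edgeR adjusted p = 8e-06). The loader Cdt1, on chr8:122568015-122573554, read 112 and 120 CPM and 125 and 135 CPM, at 0.17 ± 0.055 (SE, edgeR adjusted p = 0.022). Mcm2 thus rose while its partners in the ring did not: Mcm4 fell (-0.19 ± 0.045 SE, edgeR adjusted p = 0.0018), and the MCM2-7 subunits together ranged from -0.19 to 0.29. The other loader, Cdc6, went from 30.97 and 28.1 CPM to 24.7 and 21.6 CPM, a fall (-0.35 ± 0.086 SE, edgeR adjusted p = 0.0022). Thymidylate synthase, Tyms, read 56.3 and 53.4 CPM in DMSO and 45.7 and 44.9 CPM with BML-260, at -0.28 ± 0.058 (SE, edgeR adjusted p = 0.00054). Uhrf1 fell again (-0.19 ± 0.044 SE, edgeR adjusted p = 0.0016). Cyclin E1, by contrast, did not pass at this time: 18.7 and 18.9 CPM in DMSO, 18.4 and 18.5 CPM with BML-260, with a log2 change of -0.025 ± 0.084 (SE, edgeR adjusted p = 0.85). Pcna had -0.16 (edgeR adjusted p = 0.089), which passed only with upper-quartile scaling among the settings tried (-0.20, adjusted p = 0.039).

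Mki67 was the most reduced of the G2/M genes, with 533 and 525 CPM in DMSO and 435 and 437 CPM with BML-260, with a log2 change of -0.28 ± 0.047 (SE, edgeR adjusted p = 4.1e-05). The kinetochore motor Cenpe gave 155 and 149 CPM and 130 and 127 CPM, at -0.24 ± 0.055 (SE, edgeR adjusted p = 0.0011). Its neighbour at the kinetochore, Cenpf, fell (-0.17 ± 0.049 SE, edgeR adjusted p = 0.01), and the spindle kinesin Kif11 at -0.21 ± 0.051 (SE, edgeR adjusted p = 0.0019). The other G2/M fall was Birc5, at -0.14 ± 0.054 (SE, edgeR adjusted p = 0.048). Rises were called for Cdc20, with 66.6 and 61.2 CPM in DMSO and 70.5 and 72.4 CPM with BML-260, at 0.16 ± 0.057 (SE, edgeR adjusted p = 0.028), and for Plk1. Plk1 read 46.3 and 44.5 CPM and 55.8 and 47.5 CPM, at 0.18 ± 0.066 (SE, edgeR adjusted p = 0.03), and its BML-260 libraries were unequal, replicate 1 being well above replicate 2. Ccnb1, Cdk1 and Top2a did not pass, at 0.073, -0.03 and -0.059.

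Several calls at 3 days, rises and falls, did not hold in every fit. With upper-quartile scaling Cdt1 (0.13, adjusted p = 0.068), Cdc20 (0.13, adjusted p = 0.085) and Plk1 (0.15, adjusted p = 0.081) no longer passed, leaving 1 higher and 10 lower G1/S genes and 0 higher and 7 lower G2/M genes. Over all tested genes that scaling gave 2077 higher and 3313 lower in place of 2625 and 2782. DESeq2's size factors gave 3 higher and 4 lower G2/M genes, and its Wald test did not pass Cdc20 (adjusted p = 0.056), Plk1 (0.067), Cenpf (0.057) or Mcm5 (0.16). Mcm5, at -0.12 (edgeR adjusted p = 0.045), was lost when any 1 of the 4 libraries was left out (edgeR adjusted p of 0.061 to 0.34). Without BML-260 3 days replicate 1 Plk1 dropped to 0.067 (adjusted p = 0.54), and without DMSO 3 days replicate 2 it was 0.18 (adjusted p = 0.11). Cdc20 was lost without BML-260 3 days replicate 1 (adjusted p = 0.059) or replicate 2 (adjusted p = 0.16) and without DMSO 3 days replicate 2 (adjusted p = 0.18). Cdt1 was lost without BML-260 3 days replicate 2 (adjusted p = 0.27) or DMSO 3 days replicate 1 (adjusted p = 0.14), whereas Mcm2 passed in every one of these fits. The 11 G1/S calls became 7 without BML-260 3 days replicate 2, 4 without DMSO 3 days replicate 1 and 6 without DMSO 3 days replicate 2. The 7 G2/M calls became 4 without BML-260 3 days replicate 1, 4 without DMSO 3 days replicate 1 and 3 without DMSO 3 days replicate 2. Without DMSO 3 days replicate 1 the calls of Mcm4 (adjusted p = 0.063), Cdc6 (0.087), Cenpe (0.056), Kif11 (0.16) and Cenpf (0.19) were lost. Cdc6 also lost its call without BML-260 3 days replicate 2 (0.074), Cenpf without that library (0.13) or DMSO 3 days replicate 2 (0.07), and Uhrf1 without DMSO 3 days replicate 2 (0.067). Preadipocyte and fibroblast markers summed to 517 to 563 CPM in DMSO and 301 to 310 CPM with BML-260 (6 of 8 tested called lower, none higher), and smooth muscle and pericyte markers to 348 to 359 CPM and 184 to 209 CPM. Adipocyte markers summed to 7360 to 7530 CPM in DMSO and 7650 to 7860 CPM with BML-260, of which Fabp4 made up 4600 and 5690 CPM, and 3 of the 7 were called higher and 3 lower, Adipoq going from a mean of 936 to 448 CPM. The part of these markers in the result was not tested.

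The change in the BML-260 effect between 1 and 3 days was tested directly, as an interaction of compound and time. Of the 44 genes 7 had a higher effect at 3 days and none a lower one (2 of 17 G1/S and 5 of 27 G2/M), against 8.44% of all tested genes called (3.93% higher and 4.51% lower). G2/M genes had a positive difference in 24 of 27, with a median of 0.13, and G1/S genes a median of 0.14, beside -0.018 for all tested genes. Cdt1 differed by 0.40 ± 0.08 (SE, edgeR adjusted p = 0.0023) and Mcm2 by 0.30 ± 0.062 (SE, edgeR adjusted p = 0.003). Cdc20, on chr4:118432901-118437352, differed by 0.43 ± 0.082 (SE, edgeR adjusted p = 0.0017), and Plk1, on chr7:122159439-122169873, by 0.46 ± 0.094 (SE, edgeR adjusted p = 0.0031). These 2 activators of mitotic exit and entry were called lower at 1 day and higher at 3 days. Smaller differences passed for Kif20a (0.28, edgeR adjusted p = 0.026), for the midzone protein Prc1 (0.23, edgeR adjusted p = 0.026) and for Ccnb1 (0.22, edgeR adjusted p = 0.037). For Ccne1 the difference of 0.34 (edgeR adjusted p = 0.06) missed the threshold, which it passed with DESeq2's size factors (adjusted p = 0.048). For Mki67 no difference between the times was detected (-0.008 ± 0.067 SE, edgeR adjusted p = 0.96). Called lower at both times were 5 G1/S and 3 G2/M genes, and Cdt1, Cdc20 and Plk1 were called in opposite directions. The share of all tested genes with such calls at both times was not computed, so these counts are descriptions only. The 5 G2/M calls became 3 without BML-260 1 day replicate 2, without BML-260 3 days replicate 1 or without either DMSO 1 day replicate, and 2 without BML-260 3 days replicate 2 or without DMSO 3 days replicate 1. Ccnb1 lost its call without any 1 of 7 of the 8 libraries and with upper-quartile scaling (adjusted p = 0.062), and neither it nor Kif20a passed DESeq2's Wald test (adjusted p of 0.06 and 0.058). Kif20a and Prc1 both lost theirs without BML-260 1 day replicate 2 (adjusted p of 0.12 and 0.09), BML-260 3 days replicate 2 (0.11 and 0.085) or DMSO 3 days replicate 1 (0.083 and 0.059). Kif20a did so also without DMSO 1 day replicate 1 (0.11), and Prc1 without BML-260 3 days replicate 1 (0.061) or DMSO 1 day replicate 2 (0.099).

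**Figure D5:**
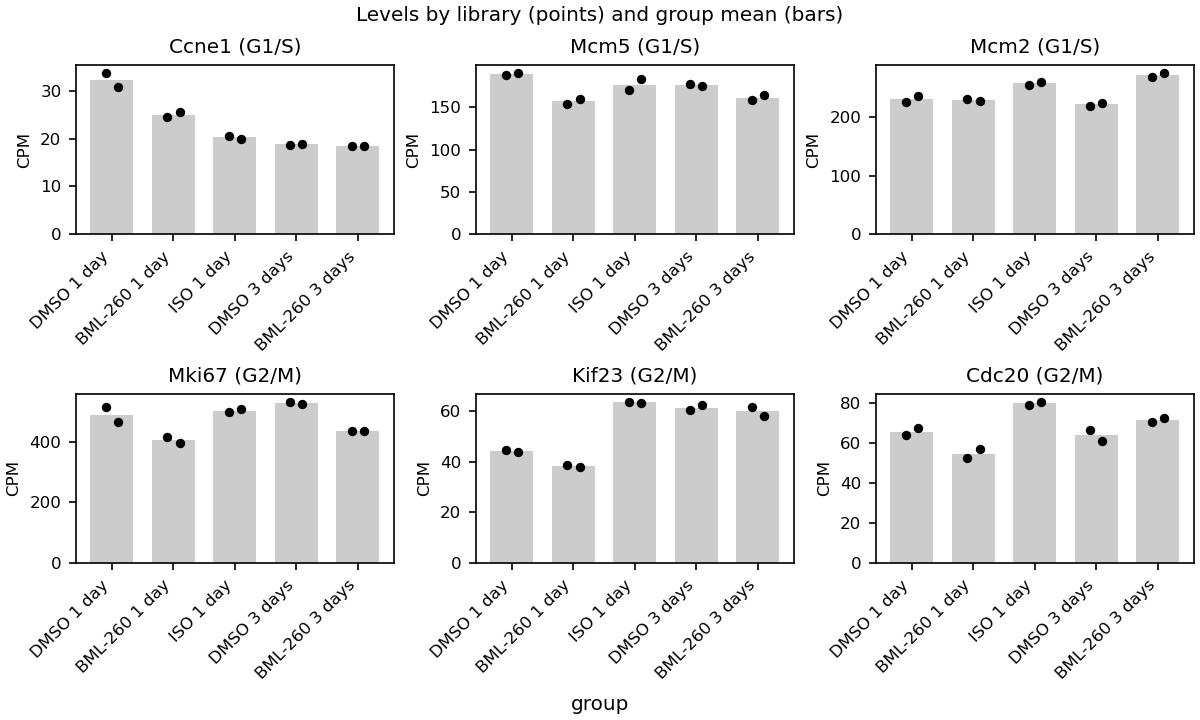
CPM in each library (points) with the group mean (bars) by group (x axis), for members that stand for the patterns described, on linear axes from 0. Ccne1 is highest in the DMSO 1 day libraries, Kif23 is lowest in the BML-260 1 day libraries, and Mcm2 is highest with BML-260 for 3 days.

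ISO for 1 day was set against the DMSO 1 day libraries that also served as control for BML-260. Here G1/S and G2/M genes went in different directions. Of the 27 G2/M genes 20 rose and none fell, 26 having a positive log2 fold change, while of the 17 G1/S genes 8 fell and 3 rose, against 41.7% of all tested genes called (21.4% higher and 20.3% lower). Medians were 0.23 for G2/M, -0.10 for G1/S and -0.004 for all tested genes, with ranges of -0.053 to 0.52 and -0.67 to 0.25 in the 2 classes. Both ISO libraries lay above both DMSO libraries in 23 of 27 G2/M genes, as they did in 34.5% of all tested genes (and below them in 34.3%), and below them in 9 of 17 G1/S genes.

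The largest rises were those of Kif23, Aurkb, Prc1 and Aurka. Kif23, the kinesin of centralspindlin, on chr9:61915905-61946774, read 44.9 and 43.9 CPM in DMSO and 63.8 and 63.3 CPM with ISO, which is 1.43-fold and 0.52 ± 0.057 (SE, edgeR adjusted p = 4.6e-08) on the log2 scale. Prc1, which bundles the midzone microtubules, went from 147 and 152 CPM to 189.5 and 199 CPM, at 0.38 ± 0.046 (SE, edgeR adjusted p = 1.7e-07). Aurora kinase B, of the chromosomal passenger complex, read 58.8 and 59.5 CPM and 81.1 and 81.9 CPM, at 0.46 ± 0.057 (SE, edgeR adjusted p = 2.4e-07). Aurora kinase A, which matures the spindle poles, rose (0.38 ± 0.056 SE, edgeR adjusted p = 4.6e-06). The centromeric histone Cenpa rose (0.34 ± 0.054 SE, edgeR adjusted p = 1.2e-05), the cyclin Ccnb2 at 0.33 ± 0.054 (SE, edgeR adjusted p = 2e-05) and Top2a at 0.20 ± 0.045 (SE, edgeR adjusted p = 0.00095). Other genes of cytokinesis and of the passenger complex rose by less or did not pass, Racgap1 at 0.23 (edgeR adjusted p = 0.00018), Kif20a at 0.18 (edgeR adjusted p = 0.0083) and Birc5 at 0.094 (edgeR adjusted p = 0.17). Mki67 and Ccnb1 did not pass either: Mki67 read 516 and 466 CPM in DMSO and 497 and 510.3 CPM with ISO (0.039, edgeR adjusted p = 0.54), and Ccnb1 had 0.022 (edgeR adjusted p = 0.73).

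Cyclin E genes were the most reduced of the G1/S genes. Ccne1, on chr7:38097984-38107534, read 33.7 and 30.9 CPM in DMSO and 20.6 and 19.96 CPM with ISO, which is 0.628-fold and -0.67 ± 0.078 (SE, edgeR adjusted p = 1e-07) on the log2 scale. Ccne2 read 25.4 and 23.9 CPM and 18.4 and 17.6 CPM, at -0.46 ± 0.087 (SE, edgeR adjusted p = 0.00012). Pcna fell (-0.32 ± 0.071 SE, edgeR adjusted p = 0.00068), and so did both subunits of ribonucleotide reductase, Rrm1 at -0.19 ± 0.044 (SE, edgeR adjusted p = 0.0012) and Rrm2 at -0.21 ± 0.052 (SE, edgeR adjusted p = 0.0022). The 3 rises were Cdt1 from 111 and 118 CPM to 135 and 137 CPM, at 0.25 ± 0.056 (SE, edgeR adjusted p = 0.00066), Mcm2 at 0.16 ± 0.044 (SE, edgeR adjusted p = 0.0054) and Mcm3 at 0.12 ± 0.044 (SE, edgeR adjusted p = 0.027). Of the other loader and ring subunits, Mcm4 fell (-0.14 ± 0.045 SE, edgeR adjusted p = 0.014), and Cdc6, Mcm5, Mcm6 and Mcm7 had -0.10, -0.096, -0.02 and 0.052 and did not pass. E2f1 did not pass, at -0.001 (edgeR adjusted p = 0.99), and Cdk1 of the other class rose (0.16 ± 0.047 SE, edgeR adjusted p = 0.0074). With upper-quartile scaling Mcm2 (adjusted p = 0.057), Mcm3 (0.21) and Cdk1 (0.065) were lost, Mcm5 passed at -0.15 (0.013), and the calls were 1 higher and 9 lower in G1/S and 18 higher in G2/M. Over all tested genes that scaling gave 2588 higher and 3831 lower in place of 3253 and 3086. Without DMSO 1 day replicate 1 the 11 G1/S calls became 6, and Mcm2 (0.13, adjusted p = 0.059) and Mcm3 (0.11, adjusted p = 0.11) were lost. Mcm3 was lost also without DMSO 1 day replicate 2 (0.054) or ISO replicate 2 (0.15), and Cdk1 without DMSO 1 day replicate 2 (0.078) or ISO replicate 1 (0.099). Preadipocyte and fibroblast markers summed to 469 to 498 CPM with ISO, above the 298 to 311 CPM of DMSO, with 6 of 8 tested called higher and none lower. Adipocyte markers summed to 6870 to 7180 CPM with ISO against 9800 to 9950 CPM, with Fabp4 at means of 4340 and 6390 CPM and 2 of the 7 called higher, Ucp1 and Cidea, and 4 lower. Smooth muscle and pericyte markers summed to 285 to 315 CPM against 319 to 320 CPM. Of the 6 of them tested, 2 were called higher, Tagln and Acta2, and 3 lower, Cspg4, Mcam and Myh11. The part of these marker lists in the result was not tested.

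Set directly against ISO at 1 day, BML-260 gave lower G2/M messages in 25 of 27 genes and higher ones in none, and all 27 log2 fold changes were negative, with a median of -0.41 and a range of -0.73 to -0.049. Of all tested genes 44.4% were called (21.6% higher and 22.8% lower), with a median of 0. G1/S genes were less uniform, 7 lower and 2 higher, with a median of -0.10 and a range of -0.49 to 0.31. Kif23 read 38.8 and 38.1 CPM with BML-260 and 63.8 and 63.3 CPM with ISO, with a log2 change of -0.73 ± 0.059 (SE, edgeR adjusted p = 1.1e-10). Other components of the central spindle differed in the same direction, Aurkb at -0.57 ± 0.057 (SE, edgeR adjusted p = 6.8e-09) and Racgap1, the GTPase-activating partner of Kif23, at -0.43 ± 0.045 (SE, edgeR adjusted p = 1.2e-08). The checkpoint kinase Bub1b gave -0.47 ± 0.051 (SE, edgeR adjusted p = 3.1e-08) and Cdc20 -0.55 ± 0.058 (SE, edgeR adjusted p = 1.7e-08). Mki67 and Ccnb1, which did not pass with ISO against DMSO, were lower with BML-260, at -0.31 ± 0.047 (SE, edgeR adjusted p = 6.4e-06) and -0.17 ± 0.047 (SE, edgeR adjusted p = 0.0043). Of the G1/S genes Cdt1 was lowest against ISO, with 91.8 and 103 CPM and 135 and 137 CPM, at -0.49 ± 0.057 (SE, edgeR adjusted p = 8.7e-08), and Uhrf1 and Mcm3 were next at -0.37 and -0.32. Both cyclin E genes were higher with BML-260 than with ISO, Ccne1 at 0.31 ± 0.081 (SE, edgeR adjusted p = 0.003) and Ccne2 at 0.22 ± 0.089 (SE, edgeR adjusted p = 0.044), and Pcna did not differ detectably at 0 ± 0.078 (SE). The call of Ccne2 was lost when only these 2 groups were fitted (adjusted p = 0.057), with no filter on low counts (0.079), with DESeq2's Wald test (0.18), and without BML-260 1 day replicate 1 (0.28), ISO replicate 1 (0.062) or ISO replicate 2 (0.2). Ccnb1 lost its call without BML-260 1 day replicate 1 (-0.14, adjusted p = 0.061). Doses are not given for either agent, so these values stand for the treatments as applied. The marker sums given above differed too, preadipocyte and fibroblast markers being 194 to 208 CPM with BML-260 and 469 to 498 CPM with ISO, and their part in the result was not tested.

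Time in DMSO alone was compared as well. From 1 to 3 days, 6 of 17 G1/S genes fell and none rose, and of 27 G2/M genes 9 rose and 2 fell, against 34.9% of all tested genes called (18.1% higher and 16.8% lower). Both 3 day libraries lay above both 1 day libraries in 14 G2/M genes and below them in 12 G1/S genes, beside 34.4% and 32.2% of all tested genes. The medians were -0.10 for G1/S, 0.087 for G2/M and 0.007 for all tested genes, with ranges of -0.78 to 0.093 and -0.20 to 0.47. Ccne1 went from 33.7 and 30.9 CPM to 18.7 and 18.9 CPM, which is 0.583-fold and -0.78 ± 0.078 (SE, edgeR adjusted p = 1.6e-08) on the log2 scale, the largest of the 44 in any of the comparisons with DMSO. Ccne2 fell (-0.54 ± 0.087 SE, edgeR adjusted p = 1.9e-05). Rrm2, the S-phase subunit of ribonucleotide reductase, read 183 and 163 CPM and 138 and 131 CPM, at -0.37 ± 0.052 (SE, edgeR adjusted p = 3.6e-06). The MCM2-7 genes stayed within -0.11 to 0.093. Rises were led by Kif23, with 60.5 and 62.5 CPM at 3 days and 0.47 ± 0.057 (SE, edgeR adjusted p = 3.5e-07), and Cenpe, from 118 and 110.4 CPM to 155 and 149 CPM at 0.41 ± 0.056 (SE, edgeR adjusted p = 1.7e-06). Aurkb and Bub1b rose (0.21 ± 0.057 SE, edgeR adjusted p = 0.006) and 0.23 ± 0.05 (SE, edgeR adjusted p = 0.00091). The 2 falls among G2/M genes were Cdca3, a trigger of mitotic entry, at -0.20 ± 0.044 (SE, edgeR adjusted p = 0.00073) and Ccnb1 at -0.20 ± 0.047 (SE, edgeR adjusted p = 0.0017). The DMSO 1 day libraries enter this comparison, ISO against DMSO and BML-260 against DMSO at 1 day, so those results are not independent of one another. For Ccne1 the values side by side were -0.78 for time, -0.67 for ISO and -0.37 for BML-260 at 1 day. For Kif23 they were 0.47, 0.52 and -0.21.

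The 11 G2/M calls over time became 5 without DMSO 3 days replicate 1 and 7 without DMSO 3 days replicate 2. Top2a, at 0.13 ± 0.045 (SE, edgeR adjusted p = 0.026), was lost with upper-quartile scaling (adjusted p = 0.066) and without DMSO 1 day replicate 2 (0.32), DMSO 3 days replicate 1 (0.22) or replicate 2 (0.079). Aurkb (adjusted p = 0.13) and Bub1b (0.062) were lost without DMSO 3 days replicate 1. Mki67, at 0.11 (edgeR adjusted p = 0.076), passed without DMSO 1 day replicate 1 (0.18, adjusted p = 0.0093) and with no filter on low counts (adjusted p = 0.046). Pcna, at -0.26 ± 0.07 (SE, edgeR adjusted p = 0.0056), was lost without DMSO 1 day replicate 1 (adjusted p = 0.093) or DMSO 3 days replicate 2 (0.061). Preadipocyte and fibroblast markers summed to 517 to 563 CPM at 3 days against 298 to 311 CPM at 1 day (6 of 8 tested higher, none lower) and adipocyte markers to 7360 to 7530 CPM against 9800 to 9950 CPM. Of the 7 adipocyte markers 4 were called lower, Fabp4 with means of 4600 and 6390 CPM among them, and 3 higher, Ucp1, Cidea and Pparg. Their part in the result was not tested.

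Other genes of the pathway were read from lists by function. Of 44 further replication genes, 11 fell and none rose with BML-260 at 1 day, and 17 fell and 1 rose at 3 days, which is 25% and 40.9% of the list called, against 17.9% and 35.5% of all tested genes. The polymerase gene Pole fell at 1 day (-0.35 ± 0.053 SE, edgeR adjusted p = 3.2e-05), as did the maintenance methyltransferase Dnmt1 (-0.28 ± 0.046 SE, edgeR adjusted p = 8.6e-05), whose partner is Uhrf1. At 3 days Pola1, of the primase complex, fell (-0.44 ± 0.05 SE, edgeR adjusted p = 1e-07) and Prim1 of the same complex at -0.35 ± 0.054 (SE, edgeR adjusted p = 1.4e-05), while Pold2 was the 1 that rose (0.14 ± 0.05 SE, edgeR adjusted p = 0.028). With ISO 18 fell and 6 rose (54.5% called, against 41.7% of all tested genes). The falls of smallest p were those of Pola1, at -0.46 ± 0.05 (SE, edgeR adjusted p = 3.2e-08), and of the histone chaperone Asf1b, at -0.34 ± 0.05 (SE, edgeR adjusted p = 5.2e-06). In DMSO over time 10 fell and 6 rose (36.4%, against 34.9%). The totals at 3 days and over time were near the share of all genes. For the BML-260 effect at 3 days minus 1 day, 1 gene was called higher and 1 lower (4.55%, against 8.44% of all tested genes). The difference was positive in 17 and negative in 27 of the 44, with a median of -0.066, where the 17 G1/S members had 0.143. Within this list the BML-260 effect differed between times for Pold1 and Pola1, Pold1 at 0.23 ± 0.07 (SE, edgeR adjusted p = 0.042), a call lost without any 1 of 6 of the 8 libraries and with upper-quartile scaling (adjusted p = 0.068), and Pola1 at -0.29 ± 0.07 (SE, edgeR adjusted p = 0.0086), a call lost without DMSO 1 day replicate 2 (adjusted p = 0.053), DMSO 3 days replicate 1 (0.057) or replicate 2 (0.067).

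Of 49 further mitosis genes, 48 were tested. The share called was 33.3% with BML-260 at 1 day and again 33.3% at 3 days, beside 17.9% and 35.5% of all tested genes. It was 62.5% with ISO, 89.6% for BML-260 against ISO and 45.8% over time, beside 41.7%, 44.4% and 34.9%. At 3 days the share was thus near that of all tested genes. With BML-260 at 1 day 15 fell and 1 rose: separase, Espl1, fell (-0.29 ± 0.056 SE, edgeR adjusted p = 0.00048), and securin, Pttg1, rose (0.26 ± 0.063 SE, edgeR adjusted p = 0.0043). At 3 days 10 fell and 6 rose, with the spindle gene Aspm at -0.40 ± 0.056 (SE, edgeR adjusted p = 2.9e-06) and the checkpoint gene Mad2l1 at 0.24 ± 0.06 (SE, edgeR adjusted p = 0.0028). With ISO 29 rose and 1 fell. The phosphatase Cdc25b, an activator of CDK1, rose (0.67 ± 0.048 SE, edgeR adjusted p = 2.3e-11), the midbody gene Cep55 at 0.55 ± 0.063 (SE, edgeR adjusted p = 6.7e-08) and Dlgap5, a spindle protein, at 0.49 ± 0.055 (SE, edgeR adjusted p = 7.1e-08). BML-260 against ISO had 42 lower and 1 higher, and DMSO over time 17 higher and 5 lower. With ISO, and with BML-260 against ISO, most genes of this list thus had the direction of the 27 G2/M genes. The 1 that fell with ISO was Pbk (-0.14, edgeR adjusted p = 0.033), and the 1 higher with BML-260 than with ISO was again Pttg1 (0.41, edgeR adjusted p = 9e-06). The BML-260 effect was higher at 3 than at 1 day in 5 (Incenp, Gtse1, Kif22, Ccnf and Hjurp) and lower in none. That is 10.4% called, against 8.44% of all tested genes. The smallest p was that of Incenp, of the chromosomal passenger complex, at 0.35 ± 0.068 (SE, edgeR adjusted p = 0.0017).

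Some regulators upstream of these genes had larger log2 fold changes than any of the 44. Of 18 inhibitors, Gadd45a, a stress-induced inhibitor of CDK1, rose with BML-260 at 1 day (0.57 ± 0.063 SE, edgeR adjusted p = 2.9e-07) and at 3 days (0.88 ± 0.059 SE, edgeR adjusted p = 1e-11), and also with ISO (0.67 ± 0.062 SE, edgeR adjusted p = 2.3e-09). The gene for p57, Cdkn1c, fell at both times, at -0.63 ± 0.078 (SE, edgeR adjusted p = 1.8e-06) and -0.80 ± 0.075 (SE, edgeR adjusted p = 4e-09). The p21 gene Cdkn1a read -0.12 at 1 day (edgeR adjusted p = 0.09) and rose at 3 days (0.34 ± 0.049 SE, edgeR adjusted p = 3.9e-06), and its effect differed between times by 0.47 ± 0.07 (SE, edgeR adjusted p = 0.00013). With ISO it passed only without ISO replicate 2 (0.17, adjusted p = 0.025). The p27 gene Cdkn1b did not pass with BML-260, at -0.11 and -0.003, but rose with ISO (0.65 ± 0.049 SE, edgeR adjusted p = 5.4e-11) and in DMSO over time (0.65 ± 0.049 SE, edgeR adjusted p = 1.1e-10). The quiescence-associated cyclin Ccng2 did likewise, at 0.81 ± 0.051 (SE, edgeR adjusted p = 1.7e-12) and 0.77 ± 0.051 (SE, edgeR adjusted p = 8.4e-12), and so did the antiproliferative gene Btg1, at 0.65 ± 0.043 (SE, edgeR adjusted p = 4.5e-12) and 0.67 ± 0.043 (SE, edgeR adjusted p = 5.3e-12). The inhibitor Cdkn2c went the other way, with falls under ISO (-0.37 ± 0.05 SE, edgeR adjusted p = 1e-06) and over time (-0.50 ± 0.05 SE, edgeR adjusted p = 1.7e-08). Over the list 2 rose and 5 fell with BML-260 at 1 day, 3 and 5 at 3 days, and 7 and 4 both with ISO and over time. These are 38.9%, 44.4%, 61.1% and 61.1% of the list, against 17.9%, 35.5%, 41.7% and 34.9% of all tested genes.

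Of 13 D cyclins and G1 kinases 12 were tested. Ccnd2, a D cyclin, fell with ISO (-0.56 ± 0.053 SE, edgeR adjusted p = 2.8e-09) and over time (-0.38 ± 0.052 SE, edgeR adjusted p = 2.7e-06), rose with BML-260 at 3 days (0.26 ± 0.052 SE, edgeR adjusted p = 0.00033) and did not pass at 1 day (0.044). Its kinase partner Cdk6 fell with ISO (-0.88 ± 0.106 SE, edgeR adjusted p = 1.9e-07). Over the list 1 rose and 0 fell with BML-260 at 1 day, 3 and 2 at 3 days, and 1 and 3 with ISO, the 1 that rose at 1 day being the CDK-activating kinase gene Cdk7 with BML-260 (0.29 ± 0.055 SE, edgeR adjusted p = 0.00047) as with ISO (0.26 ± 0.055 SE, edgeR adjusted p = 0.00037). That is 8.33%, 41.7% and 33.3% of the list called, against 17.9%, 35.5% and 41.7% of all tested genes. The list was thus not above the background at 1 day with either agent. Ccnd1, which drives entry into the cycle, was low, with means of 3.74 CPM in DMSO and 1.76 CPM with BML-260 at 3 days, and fell with BML-260 at 3 days (-1.09 ± 0.244 SE, edgeR adjusted p = 0.001). Among 16 E2F, DREAM and MuvB factors, the activator E2f2 fell with BML-260 at 1 day (-0.58 ± 0.089 SE, edgeR adjusted p = 3.2e-05) and 3 days (-0.44 ± 0.106 SE, edgeR adjusted p = 0.0019), with ISO (-0.88 ± 0.091 SE, edgeR adjusted p = 1.7e-08) and over time (-0.97 ± 0.092 SE, edgeR adjusted p = 5.4e-09). Foxm1, the activator of CHR promoters in G2, fell with BML-260 at 1 day (-0.35 ± 0.055 SE, edgeR adjusted p = 3.2e-05) and at 3 days (-0.16 ± 0.054 SE, edgeR adjusted p = 0.02), and with ISO had -0.075 (edgeR adjusted p = 0.27). Its fall at 3 days lost its call when any 1 of the 4 libraries was left out (edgeR adjusted p of 0.055 to 0.29). Mybl2, its partner on MuvB, did not pass in these comparisons, at -0.23, 0.019 and 0.20. Over the list 0 rose and 4 fell with BML-260 at 1 day, 3 and 6 at 3 days, and 4 and 2 with ISO, or 25%, 56.2% and 37.5% of the list, against 17.9%, 35.5% and 41.7% of all tested genes. The MuvB subunits Lin37 and Lin54 were among the 4 that rose with ISO, at 0.48 ± 0.09 (SE, edgeR adjusted p = 0.00011) and 0.45 ± 0.075 (SE, edgeR adjusted p = 2.1e-05).

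Histone genes were taken by symbol (Hist1h, Hist2h and Hist3h), and most were too low to test. Of 58, 16 entered the fit, and how RNA was selected for the libraries is not stated. Which of them are tied to S phase was not checked, so their changes are not read as changes in S phase. With BML-260 1 fell at 1 day and 3 at 3 days, with ISO 1 fell, and none of them rose. At 6.25%, 18.8% and 6.25%, these shares were under the 17.9%, 35.5% and 41.7% of all tested genes. Hist2h2be fell with ISO (-0.67 ± 0.11 SE, edgeR adjusted p = 2.1e-05), with BML-260 at 3 days (-0.59 ± 0.123 SE, edgeR adjusted p = 0.00048) and in DMSO over time (-0.56 ± 0.108 SE, edgeR adjusted p = 0.00021). The linker histone Hist1h1c was lower with BML-260 at 1 day (-0.30, edgeR adjusted p = 0.041) and at 3 days (-0.29, edgeR adjusted p = 0.016), and higher over time in DMSO (0.46, edgeR adjusted p = 0.00041). The call of Hist1h1c at 1 day was lost without BML-260 1 day replicate 1 (adjusted p = 0.22) or replicate 2 (0.051) or DMSO 1 day replicate 2 (0.35), and that at 3 days without BML-260 3 days replicate 2 (0.41), DMSO 3 days replicate 1 (0.12) or replicate 2 (0.091).

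The authors' deposited table of BML-260 against DMSO at 1 day lists 12 of the 44 genes (7 G1/S and 5 G2/M), all lower. That at 3 days lists 11 of them (8 and 3), of which Mcm2 (0.30) and Cdt1 (0.17) have positive log2 fold changes in the authors' deposited table. Each of these entries was also called by edgeR with the same sign, where edgeR called 24 and 18 of the 44. Over all genes the authors' list at 3 days is much longer than that at 1 day, yet it holds 11 members against 12. These counts were not set against the share of all genes listed, so they are descriptions only. The authors' lists and the edgeR calls compare the same groups of this series, so their overlap is not an independent check.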

How the data were processed

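RNA was sequenced from 10 libraries in 5 groups of 2. The values used are counts per gene in a table the authors deposited; per the submitters' processing notes, their tools included TopHat2 2.1.1, DESeq2, bcl2fastq 2.17.1.14 and bedtools, and mm9 and mm10 were among their builds, with no role given. The rule for assigning reads to genes, the strand setting and the annotation were not given in the sources used here. Per the file headers, the authors' deposited comparison tables hold log2 fold changes and p-values, and only what the text credits to them was taken from there. Of the symbols in that matrix of counts, 26 had been turned into dates (0.242 to 0.264% of counts), and they were kept.

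Counts were analysed in R 4.3.3 with edgeR 4.0.16 (limma 3.58.1): filterByExpr (count of at least 10, total of at least 15), TMM scaling, 1 quasi-likelihood fit over all 5 groups (5 residual degrees of freedom), a contrast per comparison, and Benjamini-Hochberg adjustment over 15212 genes at 0.05. The SE is the absolute log2 fold change over the square root of F. The common dispersion was 0.00115, a coefficient of variation of 3.39%. CPM and mean log2 CPM (prior count 2) describe levels. On simulated data, where 100 genes were changed at each size, the fit recovered 69% (compound, 1 day), 77% (compound, 3 days), 30% (interaction), 75% (ISO), 67% (compound against ISO) and 76% (time) of changes of 0.3, and 94%, 98%, 76%, 98%, 93% and 100% of changes of 0.5. The changed genes were far fewer than the 1284 to 6752 called in the data. With fewer changed genes the adjustment is stricter, so recovery in the data may differ from these shares. Unchanged genes made up 7.91%, 4.89%, 1.85%, 4.42%, 6.98% and 7.85% of the calls in the same order, above the nominal 5% in 3 of the 6.

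Alternatives were DESeq2 1.42.0 (size factors, and its Wald test), upper-quartile scaling, no filter, only the groups compared, the replicate number as a block, medians for means, and each library left out in turn. The members and lists were chosen with earlier results of these data known. In each comparison a rule picked up to 4 G1/S and 6 G2/M genes of smallest p. It also took the largest change in each class, calls against the class median and fixed genes (Mki67, Top2a, Ccnb1, Cdk1, Mcm5, Pcna, Ccne1, Ccne2, E2f1). Up to 4 genes of each other list were added, with fixed regulators. The text does not name all of these in every comparison, so it is not a full account by this rule. The further members described, and Pold2, Pttg1, Pbk, Gtse1, Kif22, Ccnf and Hjurp where they stand outside this rule, were chosen after their values were seen. Exon lengths and overlaps come from GENCODE M21 on GRCm38 and promoters from RefSeq on GRCm38.p6. Replicates of a group differed by more than counting noise, with a mean chi-square per gene of 1.92 to 3.09, so none was a library listed again.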

Additional observations from a re-analysis of the deposited data

Results flagged for a closer look

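In 7 of the 44 genes the BML-260 effect at 3 days differed from that at 1 day by the interaction test, as it did in 8.44% of all tested genes. The difference on the log2 scale was 0.40 for Cdt1, 0.30 for Mcm2, 0.43 for Cdc20, 0.46 for Plk1, 0.28 for Kif20a, 0.23 for Prc1 and 0.22 for Ccnb1, each less negative or more positive at 3 days. In Plk1 the value at 3 days was 0.067 without BML-260 3 days replicate 1, against 0.18 with it. The 5 G2/M calls among them became 2 to 4 with 1 library left out, and Ccnb1 was lost without any 1 of 7 of the 8 libraries. The groups hold 2 libraries each, too few to look for single libraries far from the rest of their group.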

How the results depend on the processing

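No called value of a named gene changed sign under any setting tried. The mean of G1/S minus the mean of G2/M log2 fold changes was -0.048 for BML-260 at 1 day, -0.065 at 3 days, -0.016 for the difference between times, -0.338 for ISO, 0.29 between BML-260 and ISO and -0.236 between the DMSO times. Taking the median log2 CPM over genes in each library, in place of the mean, gave -0.013, 0.04, 0.053, -0.443, 0.43 and -0.449. Such a median follows the gene of middle level and is not a median of fold changes. By it the sign at 3 days was the other way. The medians of the fold changes kept the sign of the means, with -0.127 for G1/S and -0.034 for G2/M genes at 3 days, and -0.196 and -0.149 at 1 day. The class difference between BML-260 and DMSO at either time is small. DESeq2's Wald test called 3 G2/M genes with BML-260 at 3 days (0 higher and 3 lower) and 3 for the difference between times; over all genes it called 999 higher and 770 lower in place of 1417 and 1311 at 1 day, and 421 and 310 in place of 598 and 686 for the difference. The cause was not tested. With 1 library left out, calls of G1/S and G2/M genes ranged over 7 to 8 and 8 to 11 (BML-260 at 1 day), 4 to 8 and 3 to 5 (3 days), 2 to 2 and 2 to 4 (difference between times), 6 to 9 and 18 to 20 (ISO), 7 to 8 and 24 to 25 (BML-260 against ISO), and 4 to 5 and 5 to 9 (DMSO over time). The class difference ranged over -0.066 to -0.031, -0.084 to -0.046, -0.036 to 0.003, -0.343 to -0.334, 0.272 to 0.308 and -0.255 to -0.216 in the same order. Over all genes the calls at 1 day were fewest without DMSO 1 day replicate 2 (608 higher and 627 lower), followed by BML-260 1 day replicate 1 (923 and 825) and replicate 2 (949 and 861). For the difference between times they were 272 and 387 without DMSO 1 day replicate 2, 371 and 307 without DMSO 3 days replicate 1, 460 and 334 without DMSO 3 days replicate 2 and 313 and 447 without BML-260 3 days replicate 1. With the replicate block, 13 G1/S and 17 G2/M genes were called for BML-260 at 1 day and 10 G1/S genes for BML-260 against ISO, the other counts being as without it. Same-numbered libraries did not deviate together (correlations of -0.034 to 0.058), so the numbers were not taken to pair them. For the difference between times, a fit of only its 4 groups, without ISO, is not reported. On simulated data changes of 0.3 on the log2 scale were often missed. Fewer genes were changed there than were called here, so recovery in the data may differ.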
